A study of Mus musculus with 4 samples.

Results

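Macrophages and other leukocytes settle in embryonic organs before birth, and their genes appear in RNA taken from a whole organ. The genes described here are 32 such genes, chosen by name: an array probe belonged to them if the gene name in the scanner file was 1 of the 32 symbols or an older synonym. The matching used no measured value, but the 32 genes were listed with earlier results of these data known, so their counts are given as a description. All 32 were on the array, with 41 of its 39429 probes, and 28 of them, with 36 probes, gave a signal above background and were tested among 19361 genes. Of these 28, 27 were above background in both genotypes, and Cd53 was kept through the control channel alone.

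The samples were ureters of mouse embryos of the NMRI strain, dissected at E14.5. Mutants carried Tbx18(cre/+) with Fgfr1(fl/fl) and Fgfr2(fl/fl). Cre recombinase made from the Tbx18 locus, which is active in cells around the ureteric epithelium, acts there on floxed alleles of 2 receptors for fibroblast growth factors, and these ureters are called cDKO (conditional double knockout). Controls were Fgfr1(fl/?);Fgfr2(fl/?), with the other allele of each gene not stated and no cre allele listed. Each of 4 arrays compared cDKO RNA with control RNA of the same labelled sex, under different dyes. Whether an extract came from 1 embryo or several is not stated, so the p-values measure only the spread between these 4 pairs of extracts, which may be technical.

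Macrophages of embryonic organs arise from yolk sac progenitors and later from monocytes of the fetal liver. They depend on the transcription factor PU.1 (encoded by Spi1) and on the receptor CSF1R with its ligands CSF1 and IL-34. Many of their surface receptors signal through small adaptors that carry an immunoreceptor tyrosine-based activation motif, among them DAP12 (Tyrobp) and the Fc receptor gamma chain (Fcer1g). They also make the first component of complement and clear dead cells and debris through scavenger receptors and lysosomal proteases.

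The tissue label was checked against its defining genes, and the targeted genes were read. All 9 genes of ureteric mesenchyme and smooth muscle that were looked up, and all 9 of urothelium, were above background. Fgfr1 gave log2 ratios of cDKO over control of -0.35, -0.09, -0.59 and -0.55 on replicates 1 to 4 (-0.40 ± 0.10, SE, adjusted p = 0.117 in limma), and Fgfr2 gave 0.68, 0.50, 0.56 and 0.60 (0.59 ± 0.07, adjusted p = 0.0355). Tbx18 stood at 0.26 ± 0.08 (adjusted p = 0.163). Fgfr2 was thus higher, not lower, in the RNA labelled cDKO. The files do not place the Fgfr1 and Fgfr2 probes inside or outside the deleted parts, so these values cannot check the genotype labels, and directions here rest on the labels. Spots well above background made up 66.1% to 71.8% in cDKO channels and 64.9% to 72.6% in control channels, and no spot was saturated.

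Most of the 28 genes tested were lower in cDKO ureters. Their median log2 ratio was -0.25, against 0.01 over all genes tested. The ratio was below 0 for 25 of the 28 (background 47.3% of all genes tested) and below 0 on all 4 arrays for 20 (background 11.8%). Only 3 passed the test over all genes, namely Batf, Pf4 and Fcer1g, all of which fell (background 0.3%, and 0.852% in either direction), and none rose (background 0.553%). At an unadjusted p under 0.05, 17 were lower (background 7.89%) and none was higher (background 11.7%). For 8 genes the 4 cDKO levels all lay under the 4 control levels (background 3.33%). They were Batf, Pf4, Fcer1g, Tyrobp, C1qb, Aif1, Maf and Csf1r. No gene had all cDKO levels above all control levels (background 4.7%). In whole ureters, fewer leukocytes, less RNA of these genes per leukocyte and less of it in other cells cannot be told apart.

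**Figure D1:**
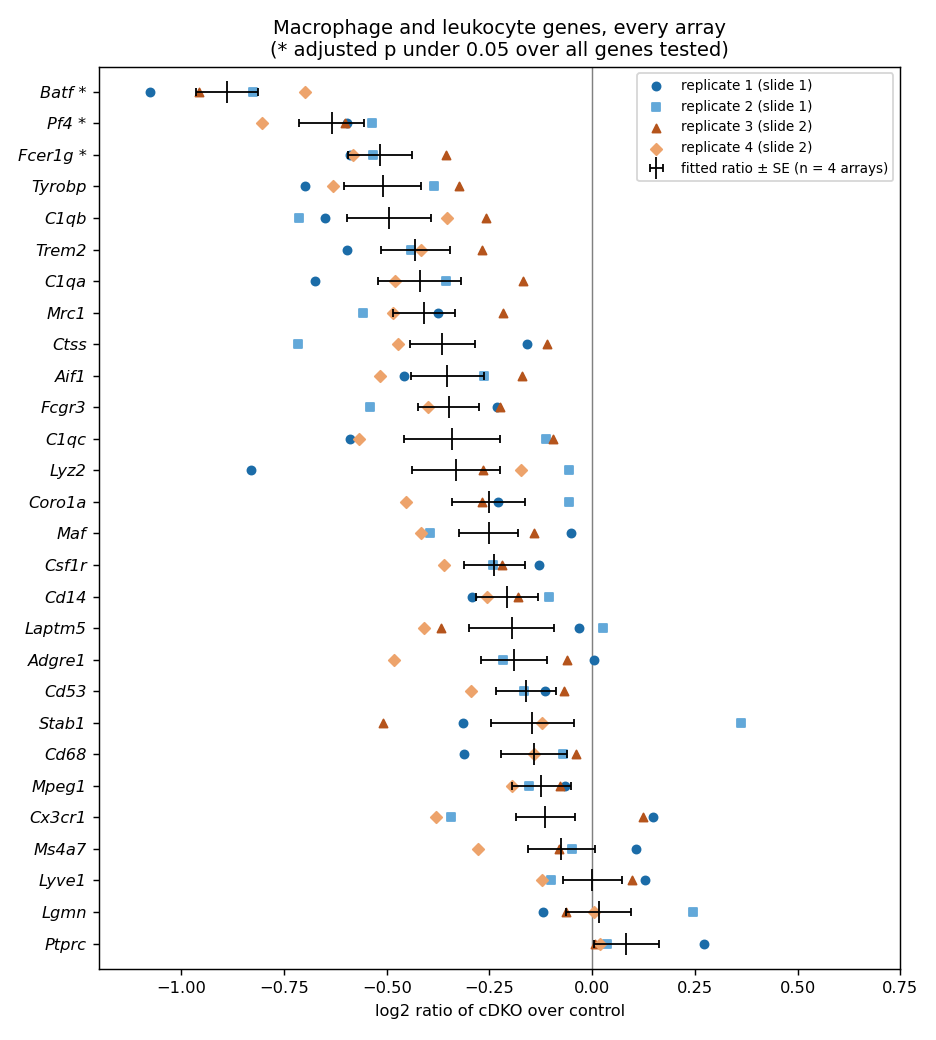
Log2 ratios of cDKO over control (x axis) for the 28 macrophage and leukocyte genes tested, ordered by the fitted ratio; symbols are the 4 arrays and black bars the fitted ratio ± SE. Batf, Pf4 and Fcer1g, marked with an asterisk, passed the test, and Ptprc, at 0.08 ± 0.08, lies at the other end.

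The lower values appeared on each array, although the ratios of all genes tested agreed only in part between arrays. Their Pearson correlation ran from 0.006 (replicates 2 and 3) to 0.507 (replicates 1 and 2). The median ratio of the 28 genes was -0.26, -0.23, -0.18 and -0.40 on replicates 1 to 4, while the median of all genes tested lay between -0.007 and 0.014. On slide 1, which carried replicates 1 and 2, it was -0.21, and on slide 2, which carried replicates 3 and 4, it was -0.30. The summed signal of the 28 probes was 51072 to 63748 in cDKO channels and 64085 to 72449 in control channels (linear brightness). The 2 ranges did not overlap, but their nearest ends lay close. Bright probes weigh most in such a sum, so it does not measure the 28 genes evenly. The brightest were Lgmn, Csf1r, Maf and Pf4 (mean control levels of 13.78, 12.75, 12.32 and 12.27, log2), with ratios of 0.02, -0.24, -0.25 and -0.63. A difference of the cDKO effect between slides was called for 0 of the 28 genes in limma (lowest adjusted p = 0.273; background 0.894%), and 3 had an unadjusted p under 0.05. Between female labels (replicates 1 and 4) and male labels (replicates 2 and 3) it was also called for 0 (background 0%, lowest adjusted p = 0.99998 in limma). Of the 28, only C1qc had an unadjusted p under 0.05 there. The share of all genes at that unadjusted p was not counted for either difference. On these arrays a sex effect cannot be told apart from a dye effect that differs between slides. The fits behind these differences left 1 residual degree of freedom. With a slide term in the model, which removes that difference from the error, 12 of the 28 fell (background 4.51%): the 3 above and Aif1, C1qa, C1qb, Ctss, Fcgr3, Lyz2, Mrc1, Trem2 and Tyrobp.

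**Figure D2:**
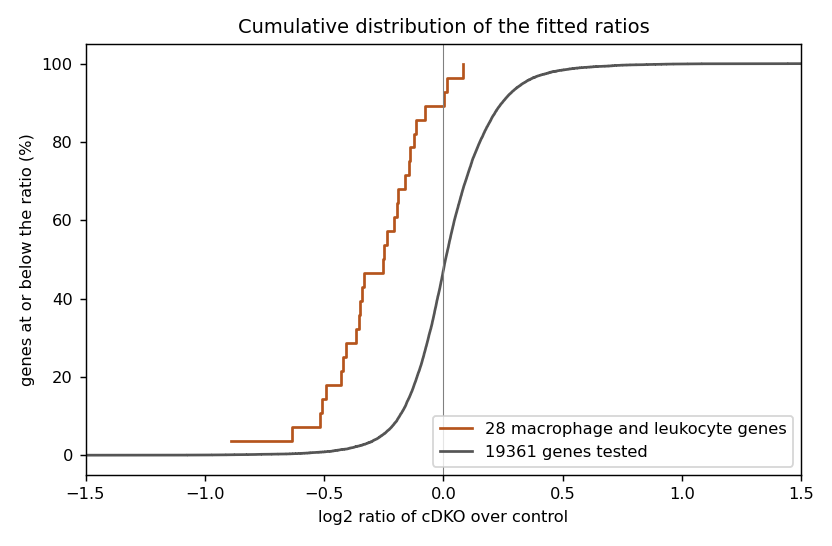
Cumulative share of genes (y axis, percent) at or below a given log2 ratio of cDKO over control (x axis) for the 28 macrophage and leukocyte genes and for all 19361 genes tested. The line of the 28 genes lies left of the other, with a median of -0.25 against 0.01.

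Among the 28 genes, the lineage factor Batf had the largest fall. It encodes an AP-1 family transcription factor known from lymphocytes and dendritic cells, where it pairs with JUN proteins. The level of Batf was 9.28, 9.37, 9.19 and 9.42 in the cDKO channels of replicates 1 to 4, against 10.36, 10.20, 10.15 and 10.12 in their control channels (log2 of brightness after normalization). The groups were far apart relative to the spread within each, at 9.32 ± 0.10 in cDKO and 10.21 ± 0.11 in control (SD, n = 4 each). The log2 ratio was -0.89 ± 0.07 (SE), which is 0.54 times the control level (adjusted p = 0.0213 in limma; probe on chromosome 12, 87049872 to 87049929, mm9). It was -0.95 on slide 1 and -0.83 on slide 2, and it passed the test without each replicate in turn. The call was lost within slide 2 alone (adjusted p = 0.34), with a sex term (0.0624) and without the filter on dim probes (0.0832).

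Genes of the cells in which Batf is best known were measured in part. Of 15 lymphocyte genes, 5 were tested (Cd3e, Cd4, Cd79a, Cd79b and Nkg7) and none was called (median log2 ratio -0.06; 0 had an unadjusted p under 0.05 in limma). The B cell receptor chain gene Cd79b, with the smallest p, stood at -0.17 ± 0.08 (adjusted p = 0.3). The T cell genes Cd3d, Cd3g and Cd8a and the B cell gene Ms4a1 were among the 10 not well above background. Of 9 antigen presentation and dendritic cell genes, 7 were tested and none was called (median -0.14; 1 lower at an unadjusted p under 0.05), and H2-Ab1, an MHC class II chain, stood at -0.18 ± 0.07 (adjusted p = 0.233). The summed signal of the tested lymphocyte genes was 4068 to 4776 in cDKO channels and 4022 to 4837 in control channels. Of 7 other AP-1 genes tested, Fosl2 rose (0.70 ± 0.08, adjusted p = 0.0337) and none fell. Their median was 0.25, with 3 of the 7 below 0, and it was 0.12 on slide 1 and 0.60 on slide 2. For 2 of them the cDKO effect differed between slides (lowest adjusted p = 0.00429). Fos gave -1.98, -1.99, 1.75 and 0.25 on replicates 1 to 4, and is named after its values were seen.

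Maf encodes a basic leucine zipper factor of macrophages that is also used in other tissues. Its level was 12.18, 12.15, 12.07 and 11.87 in cDKO channels, against 12.23, 12.55, 12.21 and 12.28 in control channels. The ranges did not overlap, but the gap within replicate 1 was small, and the ratio of -0.25 ± 0.07 did not pass the test (adjusted p = 0.146 in limma). The Maf ratio was -0.39 and -0.42 on replicates 2 and 4, with cDKO RNA in Cy3. On replicates 1 and 3, with cDKO RNA in Cy5, it was -0.05 and -0.14. Spi1, which encodes PU.1, was not well above background in either genotype on any array, so its level was not measured.

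Of 5 genes for signalling adaptors and Fc receptors, 4 were tested and Fcer1g alone passed. All 4 had ratios below 0 on all 4 arrays (background 11.8%), with a median of -0.47. Fcer1g, the gamma chain shared by activating Fc receptors and also used by mast cells, had levels of 11.02, 11.14, 10.89 and 10.61 in cDKO channels and 11.61, 11.68, 11.24 and 11.19 in control channels. Every cDKO level lay under every control level. The ratio was -0.52 ± 0.08, or 0.699 times the control level (adjusted p = 0.0489; probe on chromosome 1, 173159794 to 173159853, mm9), with -0.56 on slide 1 and -0.47 on slide 2. This call is at the threshold: without replicates 1, 2, 3 and 4 in turn the adjusted p was 0.207, 0.0932, 0.0574 and 0.0577. The call was also lost with processed signals (0.0532), median centring (0.171), a sex term (0.127), no filter (0.0966), and within slide 1 (0.0627) or slide 2 (0.47).

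Tyrobp, which encodes DAP12, had a ratio of similar size and did not pass the test. Its levels were 11.01, 11.19, 11.08 and 10.77 in cDKO channels and 11.70, 11.58, 11.41 and 11.40 in control channels, without overlap. The ratio was -0.51 ± 0.09 (adjusted p = 0.0668), and it passed when the dye term was left out (0.0496). Trem2, a lipid-sensing receptor that signals through DAP12, stood at 10.26, 10.38, 9.95 and 9.67 in cDKO channels and 10.86, 10.82, 10.22 and 10.09 in control channels. Levels on slide 2 were below those on slide 1 in both genotypes, so the groups overlapped although cDKO was lower within each array (-0.43 ± 0.08, adjusted p = 0.0753). Fcgr3, an activating receptor for IgG, had 8.07, 7.85, 7.67 and 7.70 in cDKO channels, against 8.30, 8.39, 7.90 and 8.10 in control channels (-0.35 ± 0.07, adjusted p = 0.0869). Here the groups overlapped too, with cDKO lower on every array. Fcgr1, the high-affinity IgG receptor gene, was not well above background on any array.

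**Figure D3:**
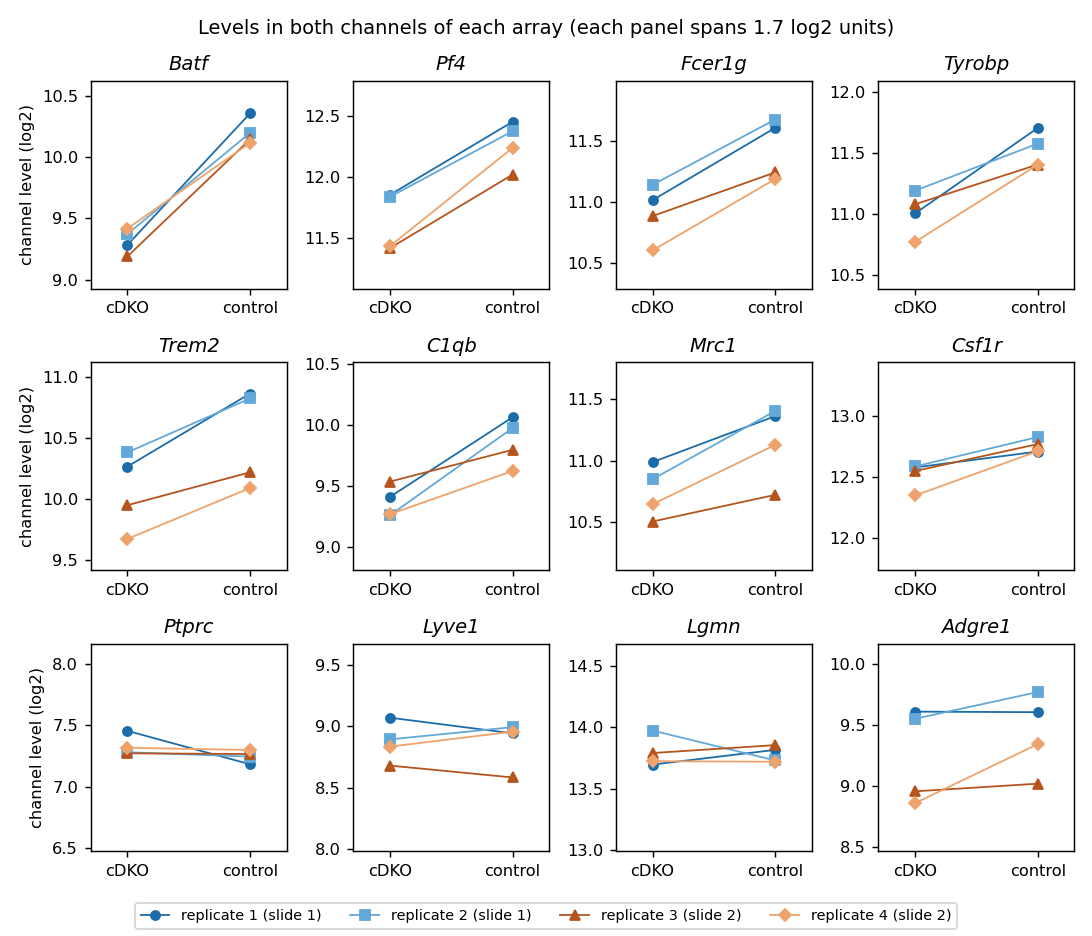
Normalized levels (y axis, log2) in the cDKO and control channels of each array for 12 of the genes; each line joins the 2 channels of an array, and every panel spans the same range. Lines rise toward control on all 4 arrays for Batf, Pf4, Fcer1g, Tyrobp, Trem2, C1qb, Mrc1 and Csf1r, and run flat or in both directions for Lyve1 and Lgmn.

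The 3 chains of complement C1q, which recognizes antibody complexes and dying cells and is made largely by macrophages, were lower on all 4 arrays, and none passed the test. C1qb had 9.41, 9.26, 9.54 and 9.27 in cDKO channels and 10.06, 9.97, 9.79 and 9.62 in control channels. Its groups did not overlap, the ratio was -0.49 ± 0.10 (adjusted p = 0.0844), and it passed within slide 1 alone (-0.68, adjusted p = 0.0368), against -0.31 on slide 2. C1qa had 9.28, 9.38, 9.10 and 8.86 in cDKO channels and 9.95, 9.74, 9.26 and 9.34 in control channels (-0.42 ± 0.10, adjusted p = 0.11). C1qc had 10.76, 11.00, 10.43 and 10.09 in cDKO channels and 11.35, 11.11, 10.52 and 10.66 in control channels (-0.34 ± 0.12, adjusted p = 0.19). For both, cDKO and control levels overlapped. The C1qc difference lay mainly on replicates 1 and 4, with female labels, at -0.59 and -0.57. Replicates 2 and 3, with male labels, gave -0.11 and -0.10. The unadjusted p for C1qc between sex labels was 0.042 in limma, and the difference was not called. C1qa gave -0.58 with female and -0.26 with male labels, and C1qb gave -0.50 and -0.49.

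Pf4 encodes platelet factor 4, a chemokine of megakaryocytes and platelets that fetal macrophages also express. Its levels were 11.85, 11.84, 11.42 and 11.43 in cDKO channels, against 12.45, 12.37, 12.02 and 12.24 in control channels. All cDKO levels lay under all control levels. The ratio was -0.63 ± 0.08, or 0.644 times the control level (adjusted p = 0.0355; probe on chromosome 5, 91202275 to 91202334, mm9), with -0.57 on slide 1 and -0.70 on slide 2. Without replicates 1, 2 and 3 in turn the call was lost (adjusted p = 0.126, 0.0516 and 0.0514), as it was without the filter (0.0832), with a sex term (0.096), and within slide 1 (0.0615) or slide 2 (0.345). Of 10 megakaryocyte and platelet genes, a list added after the values were seen, 6 were tested and none was called (median -0.18; 3 lower at an unadjusted p under 0.05), and Ppbp, another platelet chemokine gene, stood at -0.63 ± 0.11 (adjusted p = 0.0641). Ppbp had a low signal, with mean levels of 7.19 in cDKO and 7.82 in control channels. The summed signal of the 6 tested genes was 2567 to 2791 in cDKO channels and 2738 to 3472 in control channels. Itga2b and Gp1ba were not well above background. The part of the megakaryocyte and platelet genes in the Pf4 result was not tested.

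Promoter sequence was at hand for 24 of the 32 genes (RefSeq, GRCm38.p6), as the 250 bases before each annotated start. The windows were searched on both strands for GAGGAA and AGGAAGT, which overlap and hold the core of sites bound by PU.1 and other ETS factors, and for CACGTG, bound by MITF family factors of lysosomal genes. GAGGAA was found in 15 of 29 windows (51.7%), against 23.3% of all 32851 windows in the table. AGGAAGT was found in 8 (27.6%), against 7.69%, and CACGTG in 1 (3.45%), that of Lgmn, against 6.02%. Counted by gene, GAGGAA was found in 14 of 24 and AGGAAGT in 7, as windows of Fcgr3 and of Ptprc overlap. Neither GAGGAA nor AGGAAGT was found in the windows of Batf or Fcer1g. GAGGAA and AGGAAGT were both found in windows of Pf4, C1qb, C1qc, Mrc1, Ptprc and Fcgr1. Of these genes, Ptprc was above 0 on all 4 arrays and Fcgr1 was not well above background. Windows of Pf4, C1qb, C1qc and Mrc1 are shown because these genes were lower on all 4 arrays. Matches on either strand are in capitals. The windows, each 5′ to 3′ on the strand of its gene, are chr5:90772185-90772434 (plus) for Pf4, chr4:136886201-136886450 (minus) for C1qb, chr4:136892915-136893164 (minus) for C1qc and chr2:14229164-14229413 (plus) for Mrc1.
Pf4: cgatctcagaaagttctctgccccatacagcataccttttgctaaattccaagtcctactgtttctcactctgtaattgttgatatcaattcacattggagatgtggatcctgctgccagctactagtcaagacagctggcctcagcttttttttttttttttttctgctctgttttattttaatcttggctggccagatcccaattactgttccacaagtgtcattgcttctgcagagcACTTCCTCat
C1qb: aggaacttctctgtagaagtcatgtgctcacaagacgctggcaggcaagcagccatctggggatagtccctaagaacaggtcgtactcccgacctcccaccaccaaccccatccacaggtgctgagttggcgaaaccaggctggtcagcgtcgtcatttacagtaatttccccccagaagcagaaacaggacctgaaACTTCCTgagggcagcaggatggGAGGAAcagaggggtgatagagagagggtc
C1qc: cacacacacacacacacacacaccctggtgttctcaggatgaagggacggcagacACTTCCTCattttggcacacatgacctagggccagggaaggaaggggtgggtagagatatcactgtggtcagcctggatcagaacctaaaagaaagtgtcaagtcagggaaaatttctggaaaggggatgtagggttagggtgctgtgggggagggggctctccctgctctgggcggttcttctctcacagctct
Mrc1: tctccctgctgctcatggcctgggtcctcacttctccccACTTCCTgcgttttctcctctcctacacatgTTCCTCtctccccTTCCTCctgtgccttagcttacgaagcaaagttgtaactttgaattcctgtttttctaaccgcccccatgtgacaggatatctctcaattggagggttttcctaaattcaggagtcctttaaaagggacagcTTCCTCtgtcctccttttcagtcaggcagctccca
In the Pf4 window the overlapping match lies 10 to 3 bases before the start. In C1qb the AGGAAGT match lies 53 to 47 bases and the GAGGAA match 30 to 25 bases before it, and in C1qc the overlapping match lies 195 to 188 bases before it. In Mrc1 the AGGAAGT match lies 211 to 205 bases and the GAGGAA matches 180 to 175, 167 to 162 and 35 to 30 bases before it.

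Of the other macrophage markers none passed the test. Aif1, a calcium-binding protein of the macrophage cytoskeleton (IBA1), had 10.98, 11.11, 10.94 and 10.76 in cDKO channels and 11.44, 11.37, 11.11 and 11.28 in control channels, without overlap (-0.35 ± 0.09, adjusted p = 0.115). Adgre1, which encodes a surface receptor used as a marker of mouse macrophages, did not differ on replicate 1. Its levels were 9.61, 9.55, 8.96 and 8.86 in cDKO channels, against 9.61, 9.77, 9.02 and 9.34 in control channels (-0.19 ± 0.08, adjusted p = 0.261). A dimmer Adgre1 probe gave -0.27 ± 0.07 (adjusted p over probes = 0.145). Mpeg1, a pore-forming protein of phagocytes, stood at -0.12 ± 0.07, and Ms4a7, a membrane protein of macrophages, at -0.08 ± 0.08, with a ratio of 0.03 on slide 1.

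Csf1r encodes the receptor on which most tissue macrophages depend. Its brightest probe gave 12.58, 12.59, 12.55 and 12.35 in cDKO channels and 12.71, 12.83, 12.77 and 12.71 in control channels. The groups did not overlap, but the difference was small (-0.24 ± 0.07, adjusted p = 0.165). A second probe gave -0.23 ± 0.07 and the third 0.01 ± 0.09 (adjusted p over probes = 0.179 and 0.968), so the 3 Csf1r probes lay on both sides of 0. The third gave -0.02, -0.21, 0.21 and 0.06 on replicates 1 to 4. The fractalkine receptor gene Cx3cr1 stood at 0.15 and 0.12 on replicates 1 and 3, where cDKO RNA was in Cy5, and at -0.34 and -0.38 on replicates 2 and 4, where it was in Cy3. The direction at this probe, the brightest of 3, thus went with the dye, and the fitted ratio was -0.11 ± 0.07 (adjusted p = 0.425). Another Cx3cr1 probe went with the slide instead, at 0.32, 0.16, -0.62 and -0.65 on replicates 1 to 4 (-0.20 ± 0.19, adjusted p over probes = 0.618). The dye effect at the brightest probe had an unadjusted p of 0.011 in limma (adjusted p = 0.473). It was not called there or for any of the 19361 genes tested (background 0%).

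Scavenger and pattern receptors were split. Mrc1, the mannose receptor (CD206), had 10.99, 10.85, 10.50 and 10.64 in cDKO channels and 11.36, 11.41, 10.72 and 11.13 in control channels. It was lower in cDKO on every array, with overlap between the groups (-0.41 ± 0.07, adjusted p = 0.0668). Cd14, a co-receptor for lipopolysaccharide, stood at -0.21 ± 0.08 and Cd68, a lysosomal glycoprotein, at -0.14 ± 0.08, both below 0 on all 4 arrays and neither called. A dimmer Cd68 probe gave -0.05 ± 0.09 (adjusted p over probes = 0.824 in limma) and was above 0 on replicate 4 (0.21). Lyve1, a hyaluronan receptor of lymphatic endothelium and of some macrophages, had 9.07, 8.89, 8.68 and 8.83 in cDKO channels and 8.94, 8.99, 8.58 and 8.96 in control channels. Its ratio was 0.0006 ± 0.0709 (adjusted p = 0.997), above 0 on the 2 arrays with cDKO RNA in Cy5 and below 0 on the other two. Stab1, a scavenger receptor shared with endothelium, ranged from -0.51 on replicate 3 to 0.36 on replicate 2 (-0.15 ± 0.10). Cd163 was not well above background on any array.

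Lysosomal and antimicrobial genes also diverged. Ctss, a cysteine protease of antigen-presenting cells, had 11.56, 11.20, 11.06 and 10.69 in cDKO channels and 11.72, 11.92, 11.17 and 11.16 in control channels (-0.36 ± 0.08, adjusted p = 0.0917). It was lower in cDKO on every array, but the size went with the dye. The ratio was -0.72 and -0.47 on replicates 2 and 4 (cDKO RNA in Cy3), and -0.16 and -0.11 on replicates 1 and 3 (cDKO RNA in Cy5). The dye effect on Ctss had an unadjusted p of 0.0237 in limma and was not called (adjusted p = 0.516, background 0%). Lyz2, the lysozyme of myeloid cells, had 7.89, 8.39, 7.71 and 7.58 in cDKO channels and 8.72, 8.45, 7.97 and 7.76 in control channels (-0.33 ± 0.11, adjusted p = 0.173). Replicate 1 alone gave -0.83, and the other three gave -0.06 to -0.27; the near-identical paralog Lyz1 may share this probe's signal. Lgmn, an asparagine-specific protease that many cell types use, had 13.70, 13.97, 13.79 and 13.72 in cDKO channels and 13.82, 13.73, 13.86 and 13.72 in control channels, a ratio of 0.02 ± 0.08 (adjusted p = 0.941). Cybb, the catalytic subunit of the phagocyte oxidase, was not well above background on any array.

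Of the genes expressed by most leukocytes none passed the test. Coro1a, an actin regulator of leukocytes, stood at -0.25 ± 0.09 (adjusted p = 0.201), below 0 on all 4 arrays. Laptm5, a lysosomal membrane protein, gave -0.03 and 0.03 on replicates 1 and 2 but -0.37 and -0.41 on replicates 3 and 4. Cd53, a tetraspanin, stood at -0.16 ± 0.07 and was well above background on 3 of 4 arrays in cDKO channels. Ptprc, which encodes CD45, had 7.46, 7.28, 7.27 and 7.32 in cDKO channels and 7.18, 7.24, 7.27 and 7.30 in control channels. It was the only gene of the 28 above 0 on all 4 arrays (0.08 ± 0.08, adjusted p = 0.618), and its signal was low. The median channel level of probes that failed the filter was 6.35.

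**Figure D4:**
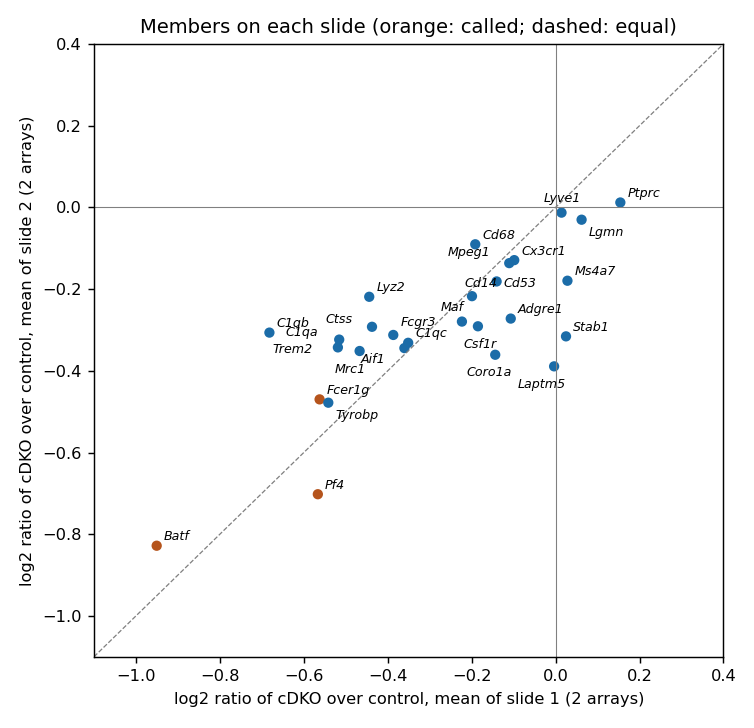
Mean log2 ratio of cDKO over control on slide 1 (x axis, replicates 1 and 2) against slide 2 (y axis, replicates 3 and 4) for the 28 genes; orange points passed the test and the dashed line marks equal ratios. Batf, Pf4 and Fcer1g lie near the line, C1qb is lower on slide 1 (-0.68 against -0.31) and Laptm5 on slide 2 (-0.39 against -0.004).

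A wider set of macrophage genes was looked up beside these. Of 50, 41 were tested, and their median was -0.13. Of the 41, 34 lay below 0 (background 47.3%), and 18 were below 0 on all 4 arrays (background 11.8%). Only Cebpa, a myeloid transcription factor also active in other tissues, was called (-0.57 ± 0.09, adjusted p = 0.0489 in limma, background 0.3% for falls). At an unadjusted p under 0.05, 14 were lower (background 7.89%) and 1 was higher (background 11.7%). The summed signal of the 41 genes overlapped between the groups, at 165585 to 178264 in cDKO channels and 165573 to 182029 in control channels. This sum rests mostly on its brightest genes, so it does not measure the list evenly. They were Ctsl and Itgam, with ratios above 0 (0.05 and 0.11), and Ctsb and Apoe, with ratios below 0 (-0.05 and -0.35). Their mean control levels were 15.67, 14.30, 14.95 and 14.53, and they are named after their values were seen.

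Among 14 tested genes for macrophage growth factors, chemokines and their receptors, 1 fell (background 0.3%), none rose (background 0.553%), and the median was -0.22. The 1 that fell was the monocyte chemoattractant gene Ccl7 (-0.51 ± 0.07, adjusted p = 0.0455 in limma). Its signal was low, with mean levels of 7.07 in cDKO and 7.59 in control channels. The ligands of CSF1R, named here for that role and not by the rule, did not pass: Csf1 stood at -0.11 ± 0.08 (adjusted p = 0.508) and Il34 at 0.07 ± 0.10 (adjusted p = 0.769).

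Other blood and vessel cells were measured in the same RNA. Of 13 monocyte and neutrophil genes 9 were tested and none was called (median -0.13; 2 lower at an unadjusted p under 0.05), with the neutrophil gene S100a8 at -0.46 ± 0.10 (adjusted p = 0.0999). Of 10 mast cell and basophil genes 5 were tested and none was called (median -0.13; 1 lower and 1 higher at an unadjusted p under 0.05), with the mast cell carboxypeptidase gene Cpa3 at -0.78 ± 0.12 (adjusted p = 0.0523) and the receptor genes Fcer1a and Ms4a2 not well above background. Cpa3 had a low signal, with mean levels of 6.98 in cDKO and 7.77 in control channels. The mast cell sums were 15440 to 20790 in cDKO channels and 14497 to 21860 in control channels, beside the fall of Fcer1g. They include Gata2, a factor also active outside mast cells (0.33 ± 0.10, adjusted p = 0.168), so they do not measure mast cells alone. The tryptase gene Tpsb2 gave -0.75 on slide 1 and 0.41 on slide 2, a difference that was called (adjusted p = 0.0168). Gata2 and Tpsb2 are named after their values were seen. The part of these genes in the Fcer1g result was not tested.

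Of 13 endothelial and 13 erythroid genes, all tested, 3 fell and none rose (background 0.3% and 0.553%). The median of the endothelial genes was -0.30, with 12 below 0 (background 47.3%) and Emcn, an endothelial sialomucin, called (-0.58 ± 0.07, adjusted p = 0.0362). The median of the erythroid genes was -0.28, with 11 below 0 and the embryonic globin genes Hba-x (-0.66 ± 0.09, adjusted p = 0.0424) and Hbb-bh1 (-0.54 ± 0.07, adjusted p = 0.0384) called. Summed signals were 73951 to 88721 in cDKO and 88052 to 109654 in control channels for endothelium, and 345789 to 482810 in cDKO and 456562 to 559227 in control channels for erythroid genes. Their part in the macrophage and leukocyte result was not tested. Of the lymphatic genes only Flt4 and Pdpn were tested, and neither was called: Pdpn stood at 0.12 ± 0.07 (adjusted p = 0.432). The median was 0.25 over 9 genes of ureteric mesenchyme and smooth muscle, where none was called and Tshz3 stood at 0.38 ± 0.08 (adjusted p = 0.0952). It was -0.59 over 9 genes of urothelium, where Upk1b (-1.43 ± 0.20, adjusted p = 0.04) and Krt20 (-0.62 ± 0.08, adjusted p = 0.0373), both of superficial cells, fell.

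**Figure D5:**
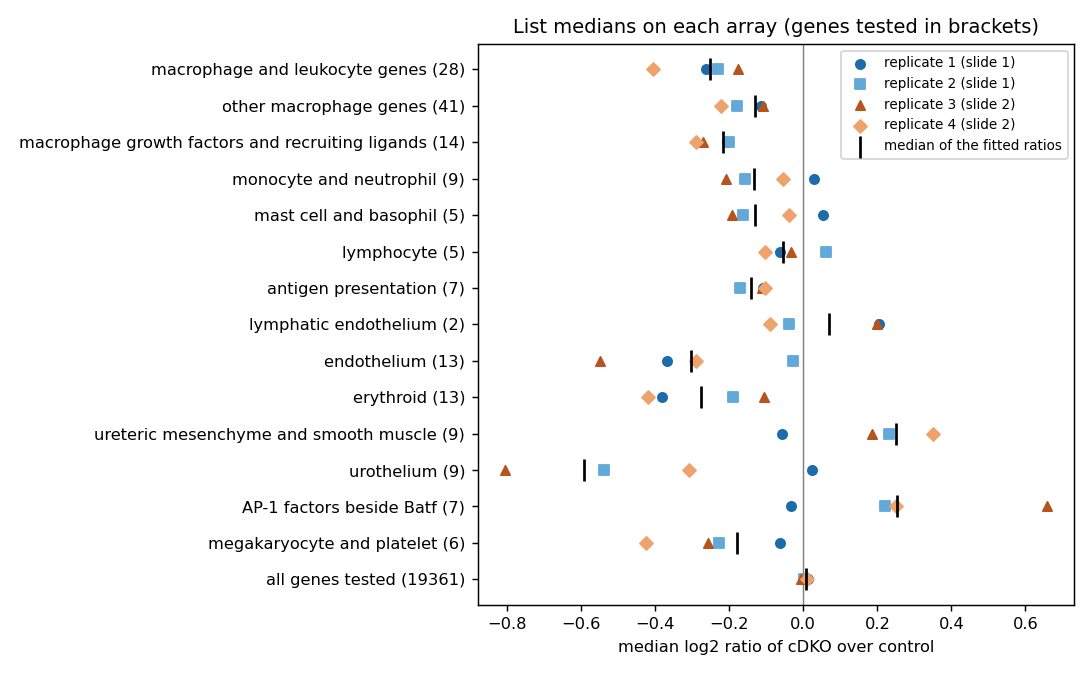
Median log2 ratio of cDKO over control (x axis) for each list of genes, with the number of genes tested in brackets; symbols are the 4 arrays and black bars the median of the fitted ratios. Lists with medians below 0 on all 4 arrays are the macrophage and leukocyte genes (fitted median -0.25), other macrophage genes (-0.13), growth factors and recruiting ligands (-0.22), antigen presentation (-0.14), endothelium (-0.30), erythroid genes (-0.28) and megakaryocyte genes (-0.18).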

How the data were processed

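Total RNA of dissected ureters was labelled with 2 dyes and hybridised to 4 Agilent arrays, with cDKO RNA in Cy5 on replicates 1 and 3 and in Cy3 on replicates 2 and 4, per the labels. Feature Extraction 10.7.3.1 (Agilent) read the scans, per the submitters' processing notes and the file headers, which give mm9 positions for the probes. The deposited scanner files give the mean spot intensity and the median local background intensity of each channel, not normalized, and log10 ratios of red over green made by the scanner software. The authors' deposited value table holds a score, a signed fold. Across probes it correlated with the scanner's log10 ratios at 0.839 (replicate 1), 0.838 (replicate 3), -0.863 (replicate 2) and -0.843 (replicate 4), so its positive values mean a higher cDKO signal. Each column's median is 1, and how it was centred stays unknown. No value column lacked a sample.

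Intensities were corrected with normexp (offset 50) and normalized within arrays by loess (span 0.3), with control and outlier spots given no weight; the 4 spots of a probe were averaged. Channel levels were taken after further Aquantile scaling. Probes were kept where at least 3 of 4 spots exceeded background clearly (the scanner's own call) on every array in either genotype (25591 of 39429, 64.9%), and the brightest kept probe stood for a gene. Probes were named through RefSeq accessions (28757), current symbols (3070) or synonyms (221), and 7381 kept the file's name. The fit used limma 3.58.1 (lmFit, eBayes) under R 4.3.3 on log2 ratios with genotype and dye terms, two-sided, leaving 2 residual degrees of freedom beside a prior of 4.53. Adjusted p-values are Benjamini-Hochberg over 19361 genes, and a gene was called under 0.05. Errors are SE of that fit over n = 4 arrays unless given as SD. The fit was tested on simulated data. The number of arrays limits the precision. Slide and scan coincide: slide 1 holds replicates 1 and 2, slide 2 replicates 3 and 4, each with both genotypes.

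Named in full were called genes, the 12 uncalled genes with the smallest p, those above 0 and those with kept probes on both sides of 0, and Adgre1, added after its values were seen; of other lists, called genes or the one with the smallest p. The members and lists were chosen with earlier results of these data known, so no list was tested. Alternatives were other background corrections and scalings, filters, probe rules, slide, sex and dye terms, single slides, robust moderation, the authors' table and leaving out each replicate. Single genes of the other lists that are counted but not named are not reported here.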

Additional observations from a re-analysis of the deposited data

Results flagged for a closer look

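Of the 28 genes, 1 had an array far from the other three: Ptprc stood at 0.27 on replicate 1, against 0.01 to 0.04 on the others. About 1 in 20 groups would meet this criterion by chance.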

How the results depend on the processing

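The median ratio of the macrophage and leukocyte genes stayed between -0.33 and -0.21 under 19 alternatives, and 23 to 27 genes lay below 0 in the 18 that refitted the genes. An alternative chosen after seeing the data, which left out 2 genes with a control level under 8, gave a median of -0.29 over 26 genes.

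Of the genes tested, 3 fell as reported. With a slide term 12 fell. Without a filter on dim probes, with a sex term and within slide 2 the limma count was 0 (20, 16 and 13 lower at an unadjusted p under 0.05). Leaving out each replicate in turn gave 1 to 2. Over all genes the count was 165. It was 256 with median centring, 258 without a dye term, 2437 with a slide term, 550 within slide 1, 2 with a sex term, 1 without the filter and 0 within slide 2 (1345 at an unadjusted p under 0.05), and 34 to 393 without each replicate in turn. A slide term removes the slides' difference from the error, and without the filter 29870 genes were tested; the cause of the other changes was not tested. Replicates 1, 2 and 3 each took the count of falls to 1 when left out.

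Direction turned for 4 uncalled genes. Lyve1 gave -0.00128 without background correction, -0.0194 with the scanner software's processed signals, -0.0103 with median centring, -0.0128 within slide 2, -0.0337 in the authors' deposited table, and -0.00711 to 0.0084 without each replicate in turn. Lgmn gave -0.0222 with the processed signals, -0.00192 with median centring, -0.0301 within slide 2, -0.0258 in the authors' deposited table, and -0.0441 to 0.0759 without each replicate. Within slide 1, Ms4a7 gave 0.0283 and Stab1 0.0248. No separate paired analysis was made, because each array already holds both genotypes and the fit on array ratios is paired. Spi1, Cybb, Cd163 and Fcgr1 were not well above background in either genotype, so no ratio is given for them.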
